A study of Homo sapiens with 3 samples.

Results

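The genes described here are 47 named genes of the short arm of chromosome 18 (18p), listed in order from the telomere around TYMS, the gene of thymidylate synthase, which itself was left out. They were 47 of the 19220 genes in the count table, and 38 of them averaged 10 or more counts per library and are called tested, which here means that their ratios were taken. They were chosen by their position together with the ratios between the same 3 libraries that are described below, so their higher level in the 5FU-resistant line is the basis of the choice and is given as a description.

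RNA-seq was carried out on CAL27, a human oral squamous cell carcinoma (OSCC) line, and on 2 resistant lines derived from it. Parental CAL27 cells were grown without drug, CAL27/5FU cells were kept in 10 μM 5-fluorouracil (5FU), and CAL27/OXA cells were kept in 10 μM oxaliplatin (OXA). All cells shared the CAL27 background, the labels name no engineered allele, and whether the resistant lines were cloned is not given in the sources used here. Each line had 1 library in use, since a second column of values per line matches no sample label and was left aside, so no ratio had a replicate check, no p-value was computed, and the intervals given cover counting error only. Only the resistant lines were grown with drug, so resistance and exposure to the drug cannot be told apart. The libraries held between 37297713 and 43455488 counts. All 7 squamous epithelial markers had an FPKM (fragments scaled to gene length and library depth) of at least 1 in each library, with summed FPKM of 5950 in parental cells, 1370 in CAL27/5FU and 1590 in CAL27/OXA. In the same order, KRT5 had 2970, 536 and 726 FPKM and KRT14 had 852, 15.5 and 118. The markers did not all fall, since CDH1 had 74.5, 75.9 and 73.0 and TP63 had 130, 59.9 and 155. VIM, a mesenchymal marker, had 0.302, 10.8 and 15.0. Summed FPKM lay between 7.51 and 14.9 for the 5 fibroblast markers and between 0.437 and 2.28 for the 3 endothelial ones. The 3 leukocyte markers summed to 41.6 FPKM in the parental library, 27.1 in CAL27/5FU and 64.2 in CAL27/OXA, with 1 of them at an FPKM of at least 1 in each, while PTPRC, their defining gene, had 0.0121 in CAL27 and 0 in both resistant lines. The part of any such marker in the ratios below was not tested. In bulk RNA, fewer cells that express a gene and less RNA per cell cannot be told apart.

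Thymidylate synthase makes the thymidylate needed for DNA synthesis and is the enzyme that the active metabolite of 5FU blocks. Extra copies of its gene are a known route to resistance against drugs that inhibit it, and such gains usually take neighbouring genes with them. Genes on a shared segment of DNA differ widely in function, and those around TYMS include an SRC-family kinase, an mRNA export factor, kinetochore and centrosome proteins and myosin light chains. DNA copy number was not measured in these libraries.

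Upstream sequence is shown for 5 members, because these genes sit at different points of the profile along the arm: USP14 and THOC1 on either side of its first step, ENOSF1 within the run beside TYMS, and SMCHD1 and CEP192 further toward the centromere. Each stretch comes from the 250 bases before the RefSeq start of the gene (GRCh38.p14), cut to the longest part outside every exon of GENCODE 29, and is written 5′ to 3′ on the strand of the gene. Capitals mark matches to the GC box (GGGCGG) or to CCAAT, on either strand.
USP14 (chr18:158307-158382, plus strand): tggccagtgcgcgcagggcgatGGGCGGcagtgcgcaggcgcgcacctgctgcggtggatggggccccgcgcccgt
THOC1 (chr18:268051-268147, minus strand): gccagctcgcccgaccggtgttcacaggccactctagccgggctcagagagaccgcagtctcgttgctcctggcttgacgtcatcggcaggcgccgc
ENOSF1 (chr18:712677-712880, minus strand): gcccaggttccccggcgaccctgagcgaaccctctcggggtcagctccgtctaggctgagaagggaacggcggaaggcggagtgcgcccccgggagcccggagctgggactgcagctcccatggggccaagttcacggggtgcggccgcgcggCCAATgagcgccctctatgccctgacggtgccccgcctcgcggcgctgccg
SMCHD1 (chr18:2655476-2655725, plus strand): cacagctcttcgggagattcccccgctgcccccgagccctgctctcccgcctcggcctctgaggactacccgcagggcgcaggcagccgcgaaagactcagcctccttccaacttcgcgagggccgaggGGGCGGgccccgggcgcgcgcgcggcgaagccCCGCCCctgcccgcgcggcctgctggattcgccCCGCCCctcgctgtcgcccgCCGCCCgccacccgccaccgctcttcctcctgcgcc
CEP192 (chr18:12991174-12991361, plus strand): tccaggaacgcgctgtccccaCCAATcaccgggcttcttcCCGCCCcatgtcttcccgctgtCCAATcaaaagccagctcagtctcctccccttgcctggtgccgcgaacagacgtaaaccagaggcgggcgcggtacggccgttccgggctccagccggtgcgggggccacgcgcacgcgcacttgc
The THOC1 stretch held neither of these motifs, and that of SMCHD1 held several GC boxes. Over the full windows of 250 bases, 44 of the 47 members had an entry. Of the 35 tested members with an entry, 25 (71.4%) held a GC box, against 42.6% of all 35116 windows in the table, and 7 (20%) held CCAAT, against 32%. TATAAA was present in 1 of the 35 (2.86%, against 10.7% of all windows), and TTTCCCGC or TTTGGCGC, forms of the E2F motif, in 2 (5.71%, against 1.93%). The median GC content of these members' windows was 72%, and that of all windows was 58%. The windows of the table include those of genes not expressed in these cells, so the shares describe the members without setting them apart, and a match is not a measured binding site.

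The 47 genes together took 0.258% of all counts in parental cells (95% exact binomial interval 0.2569 to 0.2599%), 0.855% in CAL27/5FU (0.8524 to 0.8584%) and 0.304% in CAL27/OXA (0.3027 to 0.3059%). Their summed share was thus highest in the 5FU-resistant line. Counts were scaled with TMM factors, and a log2 ratio was taken between libraries with a prior count of 2. In CAL27/5FU against CAL27, 27 of the 38 tested members were higher by more than 2-fold, where 8.46% of all 13676 tested genes were, and 1 was lower, where 6.72% were. By more than 1.5-fold, 34 were higher (15.2% of all tested genes) and 2 were lower (14% of all). By more than 4-fold, 7 were higher, against 2.95% of all tested genes. The median log2 ratio of the members was 1.30, a 2.46-fold higher level, and that of all tested genes was 0.00. Since the members were chosen on this contrast, nothing is read from these shares.

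In CAL27/OXA against CAL27, the profile of the same genes was close to level, with a median log2 ratio of 0.17 against 0.01 over all tested genes. There, 2 of the 38 members were higher by more than 2-fold (6.54% of all tested genes) and 2 were lower (9.28% of all). The higher ones were EPB41L3 and CLUL1, of which CLUL1 had 6 counts in CAL27, 17 in CAL27/OXA and an interval that includes no difference. EPB41L3 had 2, 0 and 28 counts in CAL27, CAL27/5FU and CAL27/OXA. It reached the mean of 10 counts only through CAL27/OXA, so nothing is read from its call. By more than 1.5-fold, 4 members were higher (14.1% of all) and 2 were lower (17% of all). Setting the resistant lines directly against each other, 26 members were lower by more than 2-fold in CAL27/OXA than in CAL27/5FU (8.38% of all tested genes were). In the same comparison 2 were higher (4.18% of all were), EPB41L3 again among them, and the median log2 ratio was -1.30. The comparisons share libraries, so they are not separate observations.

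**Figure D1:**
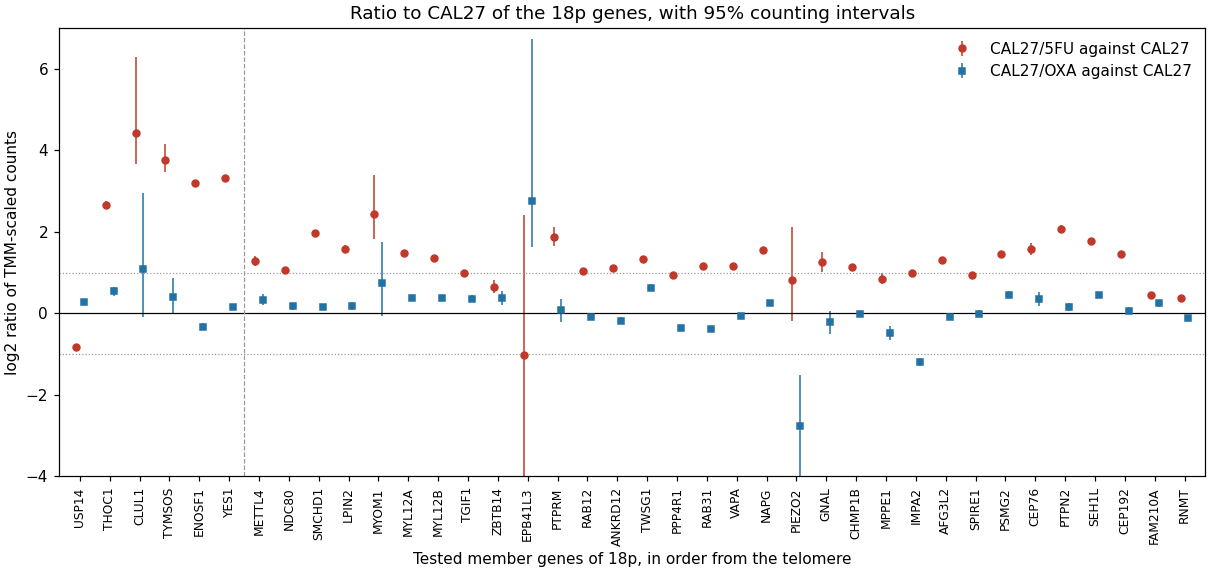
Each tested member is placed in order from the telomere on the x axis, and the y axis gives the log2 ratio of scaled counts to CAL27 for CAL27/5FU (circles) and CAL27/OXA (squares), with 95% counting intervals as vertical lines and 2-fold marked by dotted lines. In CAL27/5FU the 5 genes from THOC1 to YES1 lie between 2.66 and 4.43, left of the dashed line, most genes to its right lie near a median of 1.20, and the CAL27/OXA squares lie around 0.17.

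The first member, USP14, was the exception at the telomeric end. USP14 encodes a deubiquitinase of the proteasome (chr18:158383-214629 in GRCh38, plus strand) and had 5429 counts in parental cells, 3067 in CAL27/5FU and 7484 in CAL27/OXA. It was the well-expressed member with a lower level in the 5FU-resistant line, at a log2 ratio of -0.83 (95% counting interval -0.90 to -0.77), and it was slightly higher in CAL27/OXA, at 0.27 (0.22 to 0.32). Its tail overlaps that of the next gene by 110 bases.

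That next gene, THOC1, encodes a subunit of the THO complex, which packages mRNA for nuclear export (chr18:214520-268050, minus strand). It had 1100 counts in parental cells, 6995 in CAL27/5FU and 1824 in CAL27/OXA, so it was high in the 5FU-resistant library and only moderately above CAL27 in the other. Its log2 ratio was 2.66 (2.57 to 2.76) in CAL27/5FU and 0.54 (0.43 to 0.65) in CAL27/OXA. THOC1 and USP14 therefore differed by 3.49 on the log2 scale in CAL27/5FU although their tails overlap, the steepest change between neighbouring members outside the genes with few counts. COLEC12, a scavenger receptor, and CETN1, a centrin of the testis, lie next along the arm and had 0 counts in every library, a result that still leaves room for up to 3.

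CLUL1, a clusterin-like gene known from the retina, had 6 counts in parental cells, 169 in CAL27/5FU and 17 in CAL27/OXA. Its log2 ratio in CAL27/5FU was 4.43, the highest among the members, but the low count in CAL27 left a wide interval of 3.66 to 6.28. In CAL27/OXA its ratio of 1.09 had an interval of -0.10 to 2.94, which includes no difference.

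At the TYMS locus itself, TYMS and both flanking transcripts were highest in CAL27/5FU. TYMS had 1060, 12223 and 1267 counts in CAL27, CAL27/5FU and CAL27/OXA, a log2 ratio of 3.52 in CAL27/5FU and 0.07 in CAL27/OXA. TYMSOS, a noncoding RNA transcribed away from TYMS on the opposite strand, had 73, 1019 and 111 counts. Its log2 ratio was 3.76 (3.45 to 4.16) in CAL27/5FU and 0.41 (-0.02 to 0.86) in CAL27/OXA. ENOSF1, an enolase-superfamily enzyme whose gene overlaps the tail of TYMS on the other strand (chr18:670324-712676), had 2343 counts in parental cells, 21508 in CAL27/5FU and 2119 in CAL27/OXA. It was 9.13-fold higher in CAL27/5FU, at a log2 ratio of 3.19 (3.13 to 3.25), and lower in CAL27/OXA, at -0.33 (-0.42 to -0.25). The exons of TYMS and ENOSF1 share 967 bases, those of TYMSOS and TYMS 183, and those of CLUL1 and TYMSOS 192. The strand setting of the counting is not given in the sources used here, so reads of these overlaps cannot be assigned to one gene.

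YES1 encodes a SRC-family tyrosine kinase that acts downstream of growth factor receptors (chr18:721588-812546, minus strand), shares no exon with TYMS and was abundant. It had 6372 counts in parental cells, 63720 in CAL27/5FU and 8025 in CAL27/OXA. Its log2 ratio was 3.31 (3.28 to 3.35) in CAL27/5FU, a 9.95-fold higher level, and 0.14 (0.10 to 0.19) in CAL27/OXA. Among all genes ordered by FPKM, YES1 stood at position 2482 in parental cells (32.5 FPKM), 144 in CAL27/5FU (365 FPKM) and 2182 in CAL27/OXA (39.4 FPKM). By itself it took 0.171% of all counts in CAL27/5FU.

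**Figure D2:**
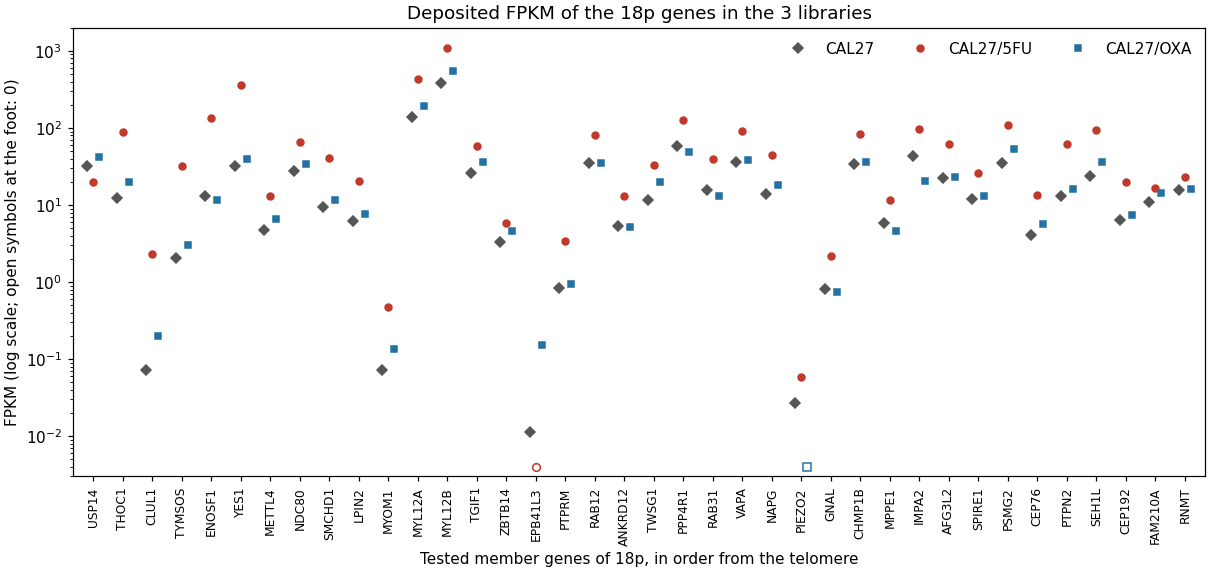
The deposited FPKM of each tested member in the 3 libraries is given on a log y axis, with members in order from the telomere on the x axis and values of 0 as open symbols at the foot. For YES1 the circle of CAL27/5FU (365) lies far above CAL27 (32.5) and CAL27/OXA (39.4), for USP14 it lies below both, and MYL12B has the highest FPKM of the members in every library.

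The split with the largest difference of medians along the arm, with at least 5 tested members on each side, fell directly after YES1 in CAL27/5FU. The 6 members before it had a median log2 ratio of 3.25 and the 32 after it a median of 1.20. Left of the split and without USP14, a subset set apart after its value was seen, the 5 genes from THOC1 to YES1 had a median of 3.31. No tested gene lies in the 1.72 Mb between YES1 and METTL4, so the place of the step within that gap is unknown. To the right, the median over 5 consecutive members stayed between 0.98 and 1.58. A further split among these 32 members fell between MYOM1 and MYL12A, with medians of 1.58 before and 1.16 after. In CAL27/OXA the same search split the arm elsewhere, between PTPRM and RAB12, with medians of 0.36 before and -0.06 after. For CAL27/OXA against CAL27/5FU it fell between ENOSF1 and YES1, with medians of -3.34 before and -1.29 after. The search returns a split in any profile, and the place of a split was not tested.

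The members are taken next by role. A share of a role group past 2-fold is to be read against 71.1% of all tested members and 8.46% of all tested genes. A share past 1.5-fold is to be read against 89.5% of all tested members and 15.2% of all tested genes. Since the members were chosen on this contrast, neither share says anything about the role. Among the signalling genes of the list, all 7 tested members were higher by more than 1.5-fold in CAL27/5FU and 4 by more than 2-fold, with a median log2 ratio of 1.25. Beside YES1, the receptor tyrosine phosphatase PTPRM had 193, 716 and 231 counts in CAL27, CAL27/5FU and CAL27/OXA, with log2 ratios of 1.87 (1.65 to 2.12) and 0.07 (-0.21 to 0.35) to CAL27. PTPN2, a phosphatase that dampens JAK and STAT signalling, had 1312, 5517 and 1662 counts with a 4.18-fold higher level in CAL27/5FU, at 2.06 (1.98 to 2.15), against 0.15 (0.05 to 0.26) in CAL27/OXA. These phosphatases were thus higher in CAL27/5FU than most members beyond YES1. PPP4R1, a regulatory subunit of protein phosphatase 4, had 9624, 18455 and 8487 counts, at ratios of 0.93 and -0.37. GNAL, the G protein alpha subunit of olfactory neurons and striatum, had 201, 482 and 196 counts, and its log2 ratio was 1.25 in CAL27/5FU. MPPE1, a phosphoesterase of GPI-anchor remodelling, had 683, 1238 and 557 counts. The exons of GNAL and MPPE1 share 2261 bases on opposite strands, and both were higher in CAL27/5FU, MPPE1 at 0.85.

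IMPA2, an inositol monophosphatase, was the abundant member with the clearest difference between the resistant lines outside the TYMS neighbourhood. It had 2784 counts in parental cells, 5543 in CAL27/5FU and 1389 in CAL27/OXA. Its log2 ratio was 0.99 (0.92 to 1.05) in CAL27/5FU and -1.19 (-1.29 to -1.10) in CAL27/OXA, and CAL27/OXA was 4.52-fold below CAL27/5FU. ARHGAP28, a GTPase-activating protein, had 0 counts in every library.

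The genes of mitosis, centrosome and membrane scission were all higher by more than 2-fold in CAL27/5FU, 4 of the 4 tested, at log2 ratios between 1.07 and 1.57. Of all tested members 71.1% were, and of all tested genes 8.46%. NDC80, the kinetochore protein that binds microtubules, had 2503, 5270 and 3208 counts in CAL27, CAL27/5FU and CAL27/OXA. CEP192, a scaffold for centrosome maturation, had 2139, 5886 and 2550 counts and a ratio of 1.45 (1.38 to 1.53) in CAL27/5FU. CEP76, a centriolar protein, had 480, 1432 and 702 counts, at 1.57 (1.42 to 1.72). All of them lay highest in the 5FU-resistant library. CHMP1B, an ESCRT-III subunit whose gene lies inside an intron of GNAL, had 4322, 9604 and 4846 counts, a ratio of 1.14 in CAL27/5FU and -0.02 in CAL27/OXA, where its interval (-0.08 to 0.04) includes no difference.

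In RNA processing and nuclear export, 3 of 4 members were higher by more than 2-fold in CAL27/5FU (71.1% of all tested members and 8.46% of all tested genes were). Beside THOC1, SEH1L, a subunit of the nuclear pore, had 2712, 9359 and 4204 counts in CAL27, CAL27/5FU and CAL27/OXA. Its log2 ratios were 1.78 (1.72 to 1.84) and 0.44 (0.37 to 0.51). METTL4, an RNA adenosine methyltransferase, had 729, 1773 and 1047 counts, at 1.27 (1.15 to 1.40) and 0.33. RNMT, which methylates the cap of mRNA, is the last member before the centromere and stayed nearer to CAL27. It had 3441, 4491 and 3640 counts and a ratio of 0.38 (0.31 to 0.44) in CAL27/5FU.

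Of the genes of chromatin and transcription, 4 of 4 tested members were higher by more than 1.5-fold in CAL27/5FU (89.5% of all tested members and 15.2% of all tested genes were). By more than 2-fold, 2 were higher (71.1% of all tested members and 8.46% of all tested genes were). SMCHD1, a chromatin protein of X inactivation, had 3391, 13289 and 4329 counts in CAL27, CAL27/5FU and CAL27/OXA, and its ratios were 1.96 (1.91 to 2.02) and 0.16. ANKRD12, a nuclear ankyrin-repeat cofactor, had 2550, 5516 and 2565 counts, at 1.11 (1.04 to 1.18) and -0.18. TGIF1, a repressor of TGF-beta and SMAD signalling, had 1829, 3617 and 2678 counts, at 0.98 and 0.36. ZBTB14, a zinc finger transcription factor, had 482, 765 and 710 counts, at 0.66 and 0.37, so SMCHD1 stood above the other genes of this role. L3MBTL4, an MBT-domain protein, had 0 counts throughout.

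In the group of protein turnover and mitochondria, USP14 stood against the other 3 members. AFG3L2, a protease of the inner mitochondrial membrane, had 3002, 7528 and 3194 counts in CAL27, CAL27/5FU and CAL27/OXA and a ratio of 1.32 (1.26 to 1.38) in CAL27/5FU. PSMG2, a chaperone of proteasome assembly, had 1559, 4260 and 2441 counts, at 1.44 (1.36 to 1.53) in CAL27/5FU and 0.46 in CAL27/OXA. FAM210A, a mitochondrial protein, had 1976, 2707 and 2681 counts, at 0.45 (0.36 to 0.53) and 0.25. Within this group, proteasome genes thus differed in direction, with PSMG2 higher and USP14 lower in CAL27/5FU.

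By FPKM, the cytoskeletal and contractile genes held the most abundant members, while by counts YES1 exceeded them in CAL27/5FU. MYL12B, a regulatory light chain of non-muscle myosin, had 15686, 40065 and 23360 counts in CAL27, CAL27/5FU and CAL27/OXA, or 378, 1082 and 541 FPKM. Its paralog MYL12A had 6413, 17857 and 9427 counts. Both were higher in both resistant lines, at 1.35 and 0.39 for MYL12B and at 1.47 and 0.37 for MYL12A. The paralogs shared 76 runs of 50 bases, which were 2.25% of the runs in MYL12A transcripts and 3.94% of those in MYL12B, so reads from these stretches could be split between them. SPIRE1, an actin nucleator, had 2672, 5170 and 3033 counts, at 0.94 in CAL27/5FU and -0.01 in CAL27/OXA. MYOM1, a protein of the sarcomere M-band, was low, with 17, 101 and 34 counts, and had a ratio of 2.44 (1.81 to 3.40) in CAL27/5FU.

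EPB41L3, an adaptor between membrane and cytoskeleton, differed in pattern from its neighbours and had 2 counts in parental cells, 0 in CAL27/5FU and 28 in CAL27/OXA. It is the 1 member counted as lower by more than 2-fold in CAL27/5FU, which rests on the prior count alone, since both libraries lie under the floor of 3 counts and no fold is given. In CAL27/OXA its log2 ratio to CAL27 was 2.76 with an interval of 1.63 to 6.73. The gene averaged 10.0 counts and counts as tested only through CAL27/OXA, where it was highest, so this ratio is a description only. Set against the floor of 3 counts in CAL27/5FU, it was at least 8.22-fold higher before the counting error of the 28 counts, and with that error the interval began at 2.65 on the log2 scale. Its nearest tested neighbour toward the centromere, LAMA1, a laminin chain that is no member, was also highest in CAL27/OXA, with 3, 0 and 220 counts. For neither gene do the counts in CAL27 and CAL27/5FU show a difference between those libraries.

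Each of the 4 membrane traffic genes was higher by more than 2-fold in CAL27/5FU, with log2 ratios between 1.04 and 1.55. Past 2-fold were 71.1% of all tested members and 8.46% of all tested genes. NAPG, a SNAP adaptor of membrane fusion, had 2137, 6271 and 2896 counts in CAL27, CAL27/5FU and CAL27/OXA. RAB31, a GTPase of endosomal sorting, had 2601, 5849 and 2273 counts, and was at 1.16 in CAL27/5FU and -0.38 in CAL27/OXA. VAPA, a tether of the endoplasmic reticulum to other membranes, had 10637, 23850 and 11633 counts, and RAB12, a GTPase of recycling and lysosomal traffic, had 3106, 6420 and 3307. VAPA and RAB12 were at 1.16 and 1.04 in CAL27/5FU, and at -0.06 and -0.10 in CAL27/OXA, where scaling by total counts turned both directions.

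Of the remaining groups few members were expressed. TWSG1, a secreted modulator of BMP signalling, had 1846, 4676 and 3245 counts in CAL27, CAL27/5FU and CAL27/OXA and was higher in both resistant lines, at 1.33 (1.26 to 1.41) and 0.62 (0.54 to 0.71). LPIN2, a phosphatidate phosphatase, had 1603, 4828 and 2079 counts, at 1.58 and 0.19. PIEZO2, a mechanically gated channel, had 11, 21 and 0 counts. Its ratio of 0.82 in CAL27/5FU has an interval of -0.19 to 2.13, and in CAL27/OXA its 11 parental counts stood against 0. Set against the floor of 3 counts, it was at least 4.18-fold lower there before the counting error of the 11 counts, and with that error the interval lay below -1.52 on the log2 scale. Besides the 4 members at 0 throughout, 5 more were too low to be tested. EMILIN2, an extracellular matrix protein, had 0, 4 and 7 counts. The counting interval of its log2 ratio to CAL27 began at -0.61 in CAL27/5FU, which includes no difference, and at 0.34 in CAL27/OXA. DLGAP1, a postsynaptic scaffold, had 0, 3 and 1 counts, and the WNT inhibitor APCDD1 had 0, 2 and 0. CIDEA, a lipid droplet protein, had 4, 0 and 2 counts, and LDLRAD4, a negative regulator of TGF-beta signalling, had 2, 2 and 10. At such levels no difference between the lines was detectable for DLGAP1, APCDD1, CIDEA and LDLRAD4.

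Some members start from a shared stretch of DNA, with their 5′ ends within 1000 bases on opposite strands. METTL4 and NDC80 start 2 bases apart and had log2 ratios of 1.27 and 1.07. FAM210A and RNMT start 3 bases apart and had the lowest positive ratios of the tested members, 0.45 and 0.38. SPIRE1 and PSMG2 start 91 bases apart and stood at 0.94 and 1.44, a difference of 0.50 on the log2 scale with intervals that do not overlap. Their upstream windows from RefSeq lie further apart, at 12656733-12656982 for SPIRE1 and 12658488-12658737 for PSMG2, so a shared start of this pair depends on the annotation. Neighbours that do not share a start could lie as close, such as RAB31 and VAPA, both at 1.16, so closeness of the ratios was not particular to these pairs. Outside these pairs, PSMG2 and CEP76, of which CEP76 lies inside PSMG2 on the other strand, share 468 exonic bases and stood at 1.44 and 1.57.

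Most tested genes of 18p that are no members were also higher in CAL27/5FU. Without TYMS they numbered 7, of which 6 were higher by more than 2-fold in CAL27/5FU, where 8.46% of all tested genes were. The 7 had a median log2 ratio of 1.13, and the gene that was not higher was LAMA1. Those averaging over 100 counts included MTCL1 at 1.75, ZNF519 at 1.49, NDUFV2 at 1.13, PRELID3A at 1.13 and TUBB6 at 1.07. The exons of TUBB6 and the member AFG3L2 share 837 bases on opposite strands, so reads of this overlap cannot be assigned to one gene. On the long arm, 18q, the 132 tested genes had a median of 0.03. By more than 2-fold, 4 of them were higher (8.46% of all tested genes were) and 4 were lower (6.72% of all were). The higher level thus appeared in most tested genes of 18p from THOC1 to ZNF519 and did not appear in the median of 18q. It was uneven along the arm, since FAM210A and RNMT, the last members before ZNF519, stood at 0.45 and 0.38. In CAL27/OXA the medians were 0.44 for the 7 other 18p genes and 0.09 for 18q.

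**Figure D3:**
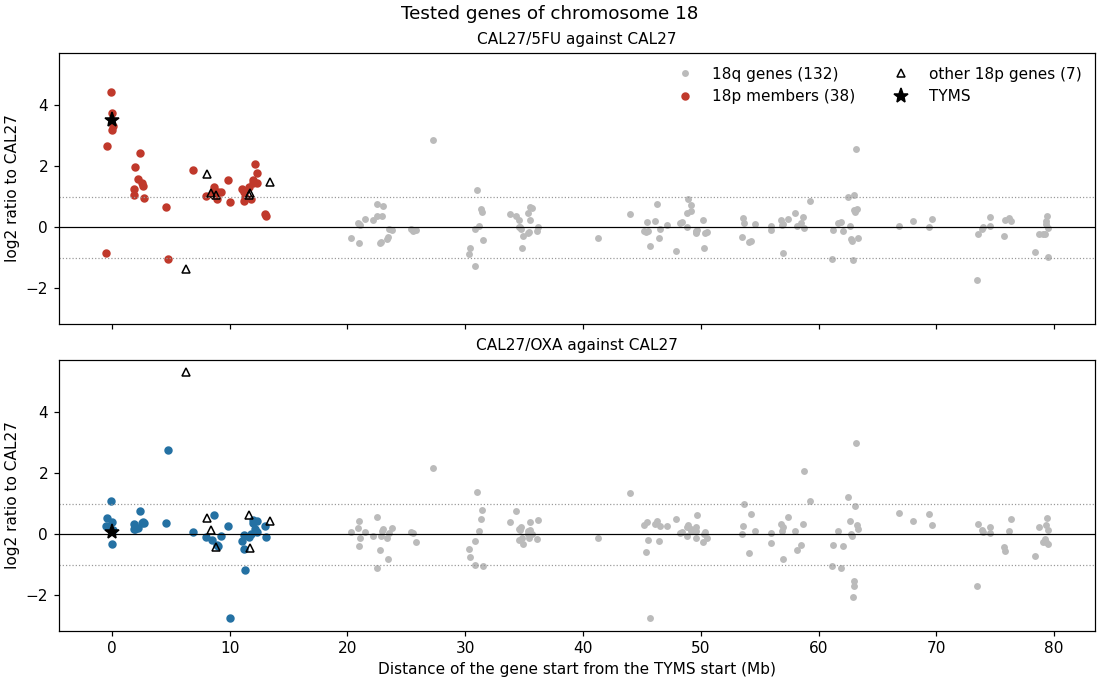
Tested genes of chromosome 18 are placed by the distance of their start from the start of TYMS (Mb, x axis), with the log2 ratio to CAL27 on the y axis, for CAL27/5FU above and CAL27/OXA below. In CAL27/5FU the members of 18p (filled, median 1.30) and most other 18p genes (triangles, median 1.13) lie above the 18q genes (grey, median 0.03), whereas in CAL27/OXA the medians are 0.17, 0.44 and 0.09.

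Over all chromosomes, windows of 11 neighbouring tested genes gave 13190 overlapping medians. On 18p, all 36 windows, which include TYMS and the other genes of the arm, had a median past 2-fold higher in CAL27/5FU, against 45 windows elsewhere. The window from USP14 to LPIN2 had the highest median of all, 2.66, and the highest elsewhere, from AGPAT1 to HLA-DQB1 on chromosome 6, was 1.62. In CAL27/OXA the 18p windows lay between -0.37 and 0.37. These windows share most of their genes and hold the values that chose the members, so they describe the profile only.

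**Figure D4:**
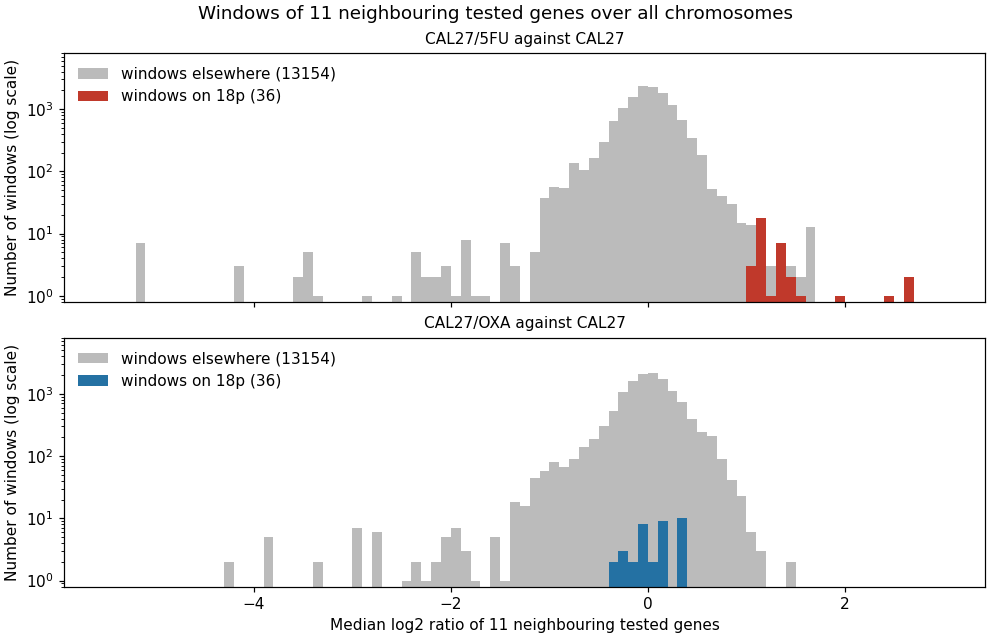
Histograms of the median log2 ratio (x axis) of 11 neighbouring tested genes, with the number of windows on a log y axis, for CAL27/5FU above and CAL27/OXA below, and 18p windows in colour. The 36 windows of 18p reach 2.66 in CAL27/5FU, beyond the 1.62 reached elsewhere, and lie between -0.37 and 0.37 in CAL27/OXA.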

How the data were processed

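RNA-seq tables of 3 libraries were used, 1 each for CAL27, CAL27/5FU and CAL27/OXA cells. The authors deposited a table of raw, unscaled counts for 19220 gene symbols and one of FPKM values, scaled by gene length and library depth, for 19225. The submitters' processing notes name CASAVA 1.8, HISAT2 2.0.5 and GRCh38, and the kit was NEBNext Ultra RNA. The counter, the annotation and the strand setting are not given in the sources used here. A further 3 columns, by their names a second one for each line, match no sample label and were not used, so the limit to 1 library per line is one of the columns used.

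Counts were scaled with TMM factors (edgeR 4.0.16, R 4.3.3), and log2 ratios took a prior count of 2. A gene is called tested where its counts averaged 10 or more, which kept 13676. With 1 library per line this means that its ratio was taken, and no statistical test was run. Intervals (95%, exact Clopper-Pearson) came from the pair of counts behind a ratio (scipy 1.17.1) and cover counting error only. A count of 0 was bounded with a floor of 3 counts, worth between 0.0675 and 0.077 CPM. Positions came from GENCODE 29 by symbol, with 18p ending before 18000000, and upstream sequences from RefSeq. Scripts were tested on simulated data. The members, the lists, the groups by role and the alternatives were chosen with earlier results of these data known. Named genes were all members, TYMS, other 18p genes past 2-fold with a mean of at least 100 counts, and markers. The value of 1 gene that this rule names is not reported here. LAMA1 (mean under 100) and the genes that bound a window were named after their values were seen. Alternatives were DESeq2 1.42.0 size factors, other scalings, filters and prior counts, and FPKM.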

Additional observations from a re-analysis of the deposited data

Results flagged for a closer look

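Of the 38 tested members, the 11 that follow lay on opposite sides of CAL27 in the resistant lines, with both counting intervals clear of no difference. The members were chosen on their higher level in CAL27/5FU, so nothing is read from this count. In CAL27/OXA against CAL27, the interval lay below 0 for 11 of the 38 members, with PIEZO2 and without USP14. It did so for 5131 of all 13676 tested genes. The share of all tested genes on opposite sides was not computed. The difference between the lines was not tested, since each line had 1 library and both ratios share the CAL27 library. USP14 was lower in CAL27/5FU (-0.83) and higher in CAL27/OXA (0.27), and the log2 ratio of CAL27/OXA to CAL27/5FU was 1.10. The other 10 were higher in CAL27/5FU and lower in CAL27/OXA. For ENOSF1 the log2 ratio of CAL27/OXA to CAL27/5FU was -3.53 and for IMPA2 it was -2.18. It was -1.55 for RAB31, -1.33 for MPPE1, -1.30 for PPP4R1 and -1.29 for ANKRD12. These 7 genes kept both directions under every alternative run. The same ratio was -1.42 for AFG3L2, -1.22 for VAPA, -1.14 for RAB12 and -0.48 for RNMT, and for these 4 genes the ratio of CAL27/OXA to CAL27 (-0.10, -0.06, -0.10 and -0.11) changed sign under another scaling.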

How the results depend on the processing

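No paired analysis was possible because each line had 1 library, and leaving out a library would remove a line. Over 9 alternatives, all 38 tested members kept their sign in CAL27/5FU against CAL27 and in CAL27/OXA against CAL27/5FU where they were tested, and 32 of 38 did in CAL27/OXA against CAL27, the others being RAB12, VAPA, CHMP1B, AFG3L2, SPIRE1 and RNMT. Scaling by total counts moved the median of all tested genes by 0.17 in CAL27/5FU and 0.13 in CAL27/OXA. With it the members' median was 1.47 in CAL27/5FU and 0.30 in CAL27/OXA. With FPKM and a pseudocount of 0.1, the medians were 1.46 and 0.30, and with a pseudocount of 1 that of CAL27/OXA against CAL27/5FU was -1.18.

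Counts of few members moved through genes with few counts. Members lower by more than 2-fold in CAL27/5FU numbered 0 under total counts, a mean of at least 50 counts, a prior count of 5 and both FPKM settings, and 2 without the filter. Those lower by more than 1.5-fold numbered 1 with a mean of at least 50 counts, a prior count of 5 and both FPKM settings. In CAL27/OXA, members higher by more than 2-fold numbered 4 without the filter, 1 with a mean of at least 50 counts, a prior count of 5 or a pseudocount of 0.1, and 0 with a pseudocount of 1, which also left 2 higher by more than 1.5-fold. Members lower by more than 2-fold or 1.5-fold there numbered 1 with a mean of at least 50 counts and with both FPKM settings. Against CAL27/5FU, 1 member was higher in CAL27/OXA with a mean of at least 50 counts and with a pseudocount of 1. Fewer genes passed a stricter filter by construction. Depth limits statements on CLUL1, MYOM1, EPB41L3, PIEZO2 and the 9 members not tested.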
